A study of Homo sapiens with 14 samples.

Results

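Sublibrary H1 of a pooled CRISPR interference screen was compared between the bright and the dim end of 1 fluorescence sort. Its members were all guide RNAs whose names carry the H1 tag in the H1 top and H1 bottom count tables. They numbered 13013 of the 103758 guides of the series. Of these, 12763 were aimed at 2318 genes and 250 were non-targeting guides, which match no human gene and served as the baseline. A target is the set of guides for 1 gene at 1 labelled transcription start, and H1 held 2555 targets, 2530 with 5 guides and 25 with 4 guides.

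The screen asked which genes, when repressed, change the abundance of the delta opioid receptor (DOR) once its agonist has been applied. The host was HEK293 FLP-In, a line of human kidney origin built with a docking site for transgenes. It carried the transgene SSF-DOR-APEX2, the receptor fused to the peroxidase APEX2, which is not driven by the receptor's own promoter. The cells also carried dCas9-KRAB-BFP, a cutting-dead Cas9 fused to a repressor domain, and came from clonal populations of the BFP-positive cells. Both groups received the H1 guides at a multiplicity of about 0.2, 0.75 µg/ml puromycin for 3 days, 8 days of growth in all, and the opioid peptide DADLE at 10 µM for 90 minutes. Intact cells were then incubated with 100 µM Amplex UltraRed for 15 minutes, and 50 µM hydrogen peroxide was added for 1 minute, during which APEX2 turns the dye fluorescent. The H1 top library holds guides from the brightest quartile of cells and the H1 bottom library those from the dimmest quartile. Both groups were stimulated, so the sort alone cannot tell the amount of receptor made from the amount lost after the agonist.

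As background, an activated DOR is phosphorylated by G protein-coupled receptor kinases, taken into endosomes and largely delivered to lysosomes. There, ubiquitin-binding sorting factors such as HGS pass cargo inward, RAB7A directs late endosomes towards lysosomes, and the vacuolar ATPase (V-ATPase) pumps in the protons that lysosomal proteases need. APEX2 is a heme peroxidase, so its product also depends on heme and on the peroxide that reaches it. H1 is the sublibrary of kinases, phosphatases and drug targets, and it therefore holds receptors, channels, transporters and metabolic enzymes beside the kinases.

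CRISPR interference works by placing dCas9-KRAB near a gene's start, at a site followed by the motif NGG. The starts of 4 genes with large values are shown to make visible how much room for guides such a window offers. Among the genes of the promoter table, CCT3 and FARSB stood near the bright end of the list and SLC1A5 and RIOK2 near the dim end. Each window runs 5′ to 3′ from 250 bases before to 50 bases after the start on the minus strand, from RefSeq on GRCh38.p14, with NGG on the printed strand in capitals.
CCT3 (chr1:156338243-156338542): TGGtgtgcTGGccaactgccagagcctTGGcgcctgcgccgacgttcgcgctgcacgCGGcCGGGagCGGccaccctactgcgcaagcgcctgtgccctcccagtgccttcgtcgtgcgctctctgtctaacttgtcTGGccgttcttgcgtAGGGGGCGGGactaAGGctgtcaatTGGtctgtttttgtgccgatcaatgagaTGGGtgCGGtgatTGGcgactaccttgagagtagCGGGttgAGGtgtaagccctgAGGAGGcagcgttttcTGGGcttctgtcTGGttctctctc
FARSB (chr2:222656043-222656342): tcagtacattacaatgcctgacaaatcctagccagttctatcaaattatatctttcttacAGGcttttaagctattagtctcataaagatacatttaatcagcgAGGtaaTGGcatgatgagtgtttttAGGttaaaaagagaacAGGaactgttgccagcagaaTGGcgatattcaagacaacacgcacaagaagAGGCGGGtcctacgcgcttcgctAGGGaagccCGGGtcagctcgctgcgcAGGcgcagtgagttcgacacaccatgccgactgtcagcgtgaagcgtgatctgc
SLC1A5 (chr19:46788545-46788844): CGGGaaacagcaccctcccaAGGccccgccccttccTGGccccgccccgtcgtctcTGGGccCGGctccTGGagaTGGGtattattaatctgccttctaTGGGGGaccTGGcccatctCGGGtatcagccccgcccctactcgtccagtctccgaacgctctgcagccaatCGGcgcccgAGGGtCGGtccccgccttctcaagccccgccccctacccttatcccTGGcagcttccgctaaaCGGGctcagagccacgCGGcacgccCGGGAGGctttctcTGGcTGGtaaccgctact
RIOK2 (chr5:97183198-97183497): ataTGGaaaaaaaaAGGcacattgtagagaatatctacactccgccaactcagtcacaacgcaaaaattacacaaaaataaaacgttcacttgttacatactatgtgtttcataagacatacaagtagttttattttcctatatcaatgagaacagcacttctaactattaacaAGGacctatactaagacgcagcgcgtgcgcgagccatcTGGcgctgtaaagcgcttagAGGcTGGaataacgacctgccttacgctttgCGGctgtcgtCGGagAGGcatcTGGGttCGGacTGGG
Counted on both strands with overlaps, NGG stood 48 times in the CCT3 window, 23 times in that of FARSB, 85 times in that of SLC1A5 and 21 times in that of RIOK2. The 35116 promoters of the table held a median of 57 and at least 4. The 1858 H1 genes with an entry had a median of 68, and the 56 called genes with an entry had a median of 63.5. The deposited names give each guide a position in a genome build not given in the sources used here, so guides were not placed in these windows.

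The H1 top library held 28350283 counts with a median of 1951 counts per guide, and the H1 bottom library held 22782124 counts with a median of 1552. A guide's value is log2 of its share of the top library over its share of the bottom library, after 1 count was added and the median of the non-targeting guides was set to 0. Positive values mean enrichment in bright cells and negative values enrichment in dim cells. The 250 non-targeting guides had an SD of 0.265, where counting alone would give 0.0623, and they ran from -0.85 to 1.61. Their SD was 0.442 in the fifth with the fewest counts and 0.130 in the fifth with the most. The reads carry no molecular identifiers and PCR copies are not separate molecules, so such counting errors are lower limits. With 1 library per group no difference had a replicate check, and each p-value below compares guides within these 2 libraries, not the conditions. The names of the deposited tables mark every top library rev and every bottom library fwd, with the meaning not stated, so a difference in how the libraries were read and the sort itself cannot be told apart.

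The value of a target is its guides' mean, given with the SD over guides. It was set against the non-targeting guides in a two-sided permutation test with Benjamini-Hochberg adjustment over 18116 targets of the 6 sublibraries compared, and a target was called at an adjusted p under 0.05. Of 2555 H1 targets, 47 were higher in the top library (1.84%) and 19 were higher in the bottom library (0.744%). Over the 2318 H1 genes at the primary start, 2.03% were called bright and 0.733% dim. The calls in each gene list below are to be read beside those shares. The median of all targets was -0.00. Called targets on the bright side had a median of 0.83 and those on the dim side -0.86, and 17 and 7 of them passed 1 in size on the log2 scale. Every guide lay on the side of the mean in 33 of the 47 bright and 12 of the 19 dim targets, against 213 of 2489 targets that were not called. Since calls rest on the mean of these same guides, that difference follows in part from the selection and is no separate evidence. The quasi-likelihood test of edgeR, fitted with a block for each guide to the 2530 targets with 5 guides, passed 29 of the 66 calls. In the other 5 compared sublibraries together, 649 of 15561 targets (4.17%) were called, against 2.58% in H1, and that difference between sorts was not tested.

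On the dim side, SLC1A5, a plasma membrane carrier of glutamine and other neutral amino acids, lay far from 0 and was the only called member of 73 solute carriers. At its first start, P1, the guides had 409, 801, 841, 1065 and 768 counts in the top library, against 2457, 3021, 5334, 5364 and 3269 counts in the bottom library. The ranges of these raw counts, not scaled to library depth, did not overlap, a trait that was not counted over all H1 targets. The mean of -2.63 ± 0.32 (SD, n = 5 guides) had a permutation adjusted p of 0.000676, the smallest the draws could give. That is a fold of 6.20 towards the dim cells. At its second start, P2, 3793 bases away, the mean was -0.50 ± 0.18 (SD, n = 5 guides; permutation adjusted p = 0.0295). The other carriers farthest from 0 were SLC16A8 at -0.38, SLC23A1 at -0.25 and SLC7A8 at -0.23, and none of these passed. Of the enzymes that act on glutamine, the glutaminase GLS2 had -0.06 and glutamine synthetase GLUL had -0.43 ± 0.59 (SD, n = 5 guides), with 5 of 5 GLUL guides below 0 and neither gene called.

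RIOK2, an atypical kinase needed to mature the small ribosomal subunit, had 1464, 1381, 728, 403 and 691 counts in the top library, against 2916, 3756, 3019, 1434 and 1221 counts in the bottom library. All of its guides lay below -1, and the mean was -1.74 ± 0.53 (SD, n = 5 guides; permutation adjusted p = 0.000676). Among 27 RIO and other atypical kinases it was the only call. Its relatives RIOK1, at -0.36 ± 0.28, and RIOK3, at 0.26 ± 0.20, did not pass. DDX39B, an RNA helicase of mRNA splicing and export, had 870, 342, 600, 426 and 554 counts in the top library, against 1765, 585, 1559, 842 and 1509 counts in the bottom library. Its mean was -1.44 ± 0.28 (SD, n = 5 guides), with all guides between -1.76 and -1.09. The summed share of its guides over both libraries averaged -1.10 on the log2 scale relative to the non-targeting median. Every top count was below the top library's median of 1951, while bottom counts of 1765, 1559 and 1509 stood near the bottom library's median of 1552. SNRPA, a protein of the U1 splicing particle, had -0.54 ± 0.33, and EEF2, which moves the ribosome along the mRNA, had -0.58 ± 0.60 at P1. Both were called dim by the permutation test and passed neither of the edgeR fits.

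Enzymes that handle peroxide and superoxide gave a call on each side. SOD1, which turns superoxide into hydrogen peroxide, had 1078, 815, 616, 699 and 1003 counts in the top library, against 1776, 2704, 462, 2051 and 3614 counts in the bottom library. The 616-count guide stood at 0.10 and the other 4 between -2.16 and -1.04, which gave -1.40 ± 0.95 (SD, n = 5 guides; permutation adjusted p = 0.000676). It passed by edgeR and DESeq2 and missed by a rank sum. GPX1, a selenium-dependent glutathione peroxidase that destroys peroxide, had 2057, 822, 5569, 558 and 849 counts in the top library, against 1773, 180, 1168, 224 and 523 counts in the bottom library. It lay on the bright side at 1.02 ± 0.90 (SD, n = 5 guides; permutation adjusted p = 0.00118), with 1 guide at -0.10, and it did not pass by edgeR, DESeq2 or a rank sum. Over the list of 31 peroxide, superoxide and thiol enzymes, these 2 were the only calls and the median was 0.00. That is 3.23% on each side, beside 2.03% bright and 0.733% dim over all H1 genes. Glutathione reductase GSR, which regenerates glutathione, had -0.42 ± 0.29, and catalase CAT, which breaks down peroxide, had 0.38 ± 0.31 at P1, neither of them called.

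Further calls came from enzymes on the route to selenoproteins. SEPSECS, which makes selenocysteine on its tRNA, had 0.92 ± 0.34, and SCLY, which releases selenium from selenocysteine, had 0.72 ± 0.37, each with all 5 guides above 0 (permutation adjusted p = 0.000676 and 0.00447). Both passed under every alternative tried. A list of 10 genes, drawn up after the values were seen, held SEPSECS, SCLY, TXNRD1 and members of the glutathione peroxidase family, not all of them selenium enzymes. Of these, SEPSECS, SCLY and GPX1 were called bright and 0 dim, with a list median of 0.03. Over all 2318 H1 genes at the primary start, 2.03% were called bright and 0.733% dim, with a median of -0.00. The next members by distance from 0 were GPX3 at 0.24, GPX7 at -0.13 and GPX5 at -0.06, and the thioredoxin reductase TXNRD1 had 0.0002.

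Heme and iron genes gave a call in each direction among 11, or 9.09% each, beside 2.03% bright and 0.733% dim over all H1 genes. FECH, which puts iron into heme in the last step of heme synthesis, had 839, 1310, 1839, 1504 and 7132 counts in the top library, against 3445, 945, 5283, 1794 and 4662 counts in the bottom library. Its guides disagreed, with 3 of 5 below 0 and values from -2.35 to 0.30, and the mean was -0.86 ± 1.19 (SD, n = 5 guides; permutation adjusted p = 0.00373). It did not pass by edgeR, DESeq2 or a rank sum. NFS1, the mitochondrial cysteine desulfurase that starts iron-sulfur clusters, had 3623, 2182, 2705, 1865 and 1683 counts in the top library, against 2446, 1009, 1705, 439 and 267 counts in the bottom library. Its mean was 1.10 ± 0.92 (SD, n = 5 guides; permutation adjusted p = 0.00118), all guides were above 0, and it did not pass by edgeR or DESeq2. UROD had -0.18 and ALAS1 had -0.08, both enzymes of heme synthesis and neither called.

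The bright side was led by the V-ATPase. H1 held 3 of its subunits, all of the V1 sector that splits ATP, and all 3 were called. ATP6V1A, the catalytic subunit, had 4694, 6552, 4781, 1148 and 2101 counts in the top library, against 359, 368, 494, 72 and 1177 counts in the bottom library. For 4 of its guides the value lay between 2.96 and 3.83, and the guide 481 bases from the first had 0.52. Its mean of 2.87 ± 1.36 (SD, n = 5 guides) was the highest of all H1 targets, a fold of 7.32.

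ATP6V1B2, the other subunit of the ATP-splitting ring, had 6142, 359, 2540, 3030 and 4755 counts in the top library, against 409, 98, 284, 524 and 615 counts in the bottom library. Its mean was 2.56 ± 0.76 (SD, n = 5 guides). ATP6V1C1, of the stalk, had 8304, 4321, 3915, 2819 and 2344 counts in the top library, against 1293, 1244, 1065, 997 and 536 counts in the bottom library. Every guide of it lay above 1, with a mean of 1.68 ± 0.44 (SD, n = 5 guides). The permutation adjusted p was 0.000676 for each of the 3 subunits, and each passed under every alternative. CCT3, a subunit of the chaperonin that folds actin and tubulin, had 3946, 4393, 4129, 2803 and 2944 counts in the top library, against 1031, 710, 885, 2076 and 300 counts in the bottom library. A single guide stood at 0.12 and the others between 1.62 and 2.97, and the mean was 1.78 ± 1.06 (SD, n = 5 guides; permutation adjusted p = 0.000676).

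Calls among genes of the path from endosome to lysosome lay on both sides. HGS, the ubiquitin-binding sorting factor, had 3594, 8180, 3339, 971 and 2355 counts in the top library, against 827, 860, 917, 938 and 2247 counts in the bottom library. The first 3 guides, within 54 bases, had values of 1.80, 2.93 and 1.55, and the 2 guides 221 and 421 bases away had -0.27 and -0.25. The mean was 1.15 ± 1.39 (SD, n = 5 guides; permutation adjusted p = 0.00334). SNAP23, a membrane-fusion SNARE, split in the same manner, with 2.07, 1.90 and 1.83 for 3 guides within 23 bases and -0.21 and -0.20 for those 424 and 427 bases away. Its mean was 1.08 ± 1.17 (SD, n = 5 guides; permutation adjusted p = 0.00118). RAB7A had 1.83 and 2.50 for 2 guides 3 bases apart and 0.31, 0.29 and 0.08 for the rest, for a mean of 1.00 ± 1.09 (SD, n = 5 guides; permutation adjusted p = 0.00207).

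None of HGS, SNAP23 and RAB7A passed by edgeR or DESeq2. RAB9A, a GTPase of transport between late endosomes and the Golgi, was more even at 0.56 ± 0.26 with 5 of 5 guides above 0, and it passed by edgeR. RABGGTA, a subunit of the enzyme that attaches lipid anchors to RAB proteins, had 0.74 ± 1.05, and 0.31 with no call when its farthest guide was left out, while its partner RABGGTB had -0.00 and the early-endosome GTPase RAB5A had 0.06. In all, 3 of 7 RAB and RAB-anchoring genes and 1 of 6 SNARE genes were called bright and 0 dim, beside 2.03% bright and 0.733% dim over all H1 genes, and both lists were drawn up after the values were seen. LAMTOR3, of the Ragulator complex that anchors mTORC1 signalling on lysosomes, was dim at -0.51 ± 0.25 (SD, n = 5 guides; permutation adjusted p = 0.0248). The cysteine proteases CTSV and CTSL had 0.48 ± 0.26, called, and 0.37 ± 0.13, not called, among 19 lysosomal enzymes. CTSV had the largest permutation adjusted p of any call, 0.0486. It passed under 11 of 17 alternatives and missed by edgeR and when p was adjusted within H1 alone. Of 42 endosomal and plasma membrane phosphoinositide kinases and phosphatases none was called, and the member farthest from 0 was PI4KB, which makes the lipid PI4P at the Golgi, at 0.52 ± 0.77.

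GRK6 was the only called member of 11 receptor kinases and opioid receptors. It had 746, 923, 2922, 1831 and 2973 counts in the top library, against 395, 463, 1961, 913 and 1833 counts in the bottom library. All 5 guides lay between 0.26 and 0.69, with a mean of 0.52 ± 0.19 (SD, n = 5 guides; permutation adjusted p = 0.0318), and it passed by edgeR but not when only the 3 farthest guides were used. The other receptor kinases had 0.13 ± 0.35 for GRK4, 0.04 ± 0.10 for GRK5, -0.00 ± 0.17 for ADRBK1 and 0.10 ± 0.57 for ADRBK2, and none was called. OPRD1, the human gene for DOR, had 1183, 1879, 2510, 2238 and 1643 counts in the top library, against 811, 1559, 1852, 1353 and 1261 counts in the bottom library. Its mean was 0.16 ± 0.17 (SD, n = 5 guides; permutation adjusted p = 0.661), and it was not called. Its guides are aimed at the start of the cell's own gene, whereas the sensor is made from a transgene with another promoter. The mu and kappa receptor genes OPRM1 and OPRK1 had -0.09 and 0.05, and the nociceptin receptor gene OPRL1 had 0.22.

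Other signalling receptors gave no calls. None of 92 G protein-coupled receptors, and none of 211 receptors and channels of the combined lists, passed the permutation test in either direction. Over all H1 genes, 2.03% were called bright and 0.733% dim. Over the 211 genes the median was -0.01 and the extremes were -0.45 for DRD2, the dopamine D2 receptor, and 0.39 for GABBR2, of the GABA-B receptor. The DRD2 guides spread widely, with an SD of 0.87 and 3 of 5 on the side of the mean.

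Kinases made up 382 genes over the kinase lists, of which 7 were called bright and 2 dim, with a median of -0.00. That is 1.83% and 0.524%, beside 2.03% and 0.733% over all H1 genes. The mitotic and checkpoint kinases held 4 of the calls among 35 genes, all bright, with a list median of 0.08. PLK1, which drives entry into and passage through mitosis, had 871, 642, 665, 907 and 1206 counts in the top library, against 453, 193, 212, 425 and 394 counts in the bottom library. Its mean was 1.09 ± 0.36 (SD, n = 5 guides; permutation adjusted p = 0.000676). AURKB, of the chromosomal passenger complex, had 0.84 ± 0.30, ATR, the sensor kinase of replication stress, had 0.79 ± 0.43, and CHEK1, its effector, had 0.66 ± 0.48. PLK1, AURKB and ATR passed under every alternative, and CHEK1 missed in edgeR. PLK1 and AURKB guides were scarce in both libraries, at -1.78 and -2.14 relative to the non-targeting median, and the part of cell number or cell size in these values was not tested.

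The CK2 kinase gave 2 further bright calls. Its regulatory subunit CSNK2B had 0.62 ± 0.28, its catalytic subunit CSNK2A2 had 0.51 ± 0.49, and the other catalytic subunit CSNK2A1 had 0.36 ± 0.29, not called. CSNK2B missed only with the 3 farthest guides, whereas CSNK2A2 also missed by edgeR, by a rank sum and when p was adjusted within H1 alone. CSNK2B and CSNK2A2 were the only calls of the 32 casein, GSK3, DYRK, CLK, SRPK and HIPK kinases, whose median was 0.01. In the MAP kinase cascades, MAP2K7, an activator of JNK, was the only call of 55. It had 799, 1554, 858, 2241 and 1846 counts in the top library, against 3374, 2222, 943, 2858 and 2327 counts in the bottom library. Its mean was -0.999 ± 0.791 (SD, n = 5 guides; permutation adjusted p = 0.000676), with 1 guide at -2.39 and the others between -0.83 and -0.45, and it passed neither edgeR nor DESeq2. Its neighbours in the cascade, none of them called, had -0.28 for MAP2K4, -0.29 for MAP3K1 and -0.24 for MAPK8. On the other side, the highest of the 55 genes had 0.31, farther from 0 than these neighbours. The list median was -0.06, and 36 of the 55 genes lay below 0, beside 1172 of all 2318 H1 genes at the primary start. NRBP1, a pseudokinase, was bright at 0.67 ± 0.40 and passed under every alternative. No call came from 58 receptor tyrosine kinases, 36 genes of the protein kinase A, G, C and adenylyl cyclase list, 32 cyclin-dependent kinases and cyclins, or 19 PI3K, AKT and mTOR genes.

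Phosphatases gave 2 bright and 3 dim calls among 141, or 1.42% and 2.13%, beside 2.03% and 0.733% over all H1 genes. PPP2R1A, a scaffold subunit of PP2A, had 2421, 1992, 3555, 2242 and 2186 counts in the top library, against 777, 817, 1064, 973 and 1171 counts in the bottom library. These raw counts, not scaled to library depth, did not overlap between the libraries, as was also the case for PLK1 and ATP6V1C1. The top library was the deeper one, and the trait was not counted over all H1 targets. The mean of PPP2R1A at P1 was 1.04 ± 0.34 (SD, n = 5 guides; permutation adjusted p = 0.000676). At P2 the mean was -0.19. ACP1, a low molecular weight tyrosine phosphatase, had 0.58 ± 0.83 and lost its call when its farthest guide was left out. On the dim side were 2 of 34 PP1 genes, both for nuclear partners of PP1. PPP1R10 had 1263, 1862, 603, 1388 and 2683 counts in the top library, against 1305, 2607, 2001, 2516 and 2870 counts in the bottom library, and a mean of -0.96 ± 0.69 (SD, n = 5 guides; permutation adjusted p = 0.000676). PPP1R8 had -0.49 ± 0.44, and CTDP1, which removes phosphates from the tail of RNA polymerase II, had -0.63 ± 0.44. None of these 3 passed by edgeR.

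Aminoacyl-tRNA synthetases, which load amino acids onto tRNAs, held 9 bright calls and 1 dim call among 27 genes, or 33.3% and 3.70%, beside 2.03% and 0.733% over all H1 genes. The split into cytosolic and mitochondrial enzymes was made after the values were seen. Of 16 cytosolic enzymes 8 were bright and 1 dim, with a median of 0.55, and of 11 mitochondrial enzymes 1 was bright, with a median of -0.00. FARSB, a subunit of phenylalanyl-tRNA synthetase, had 676, 5622, 4033, 4149 and 5081 counts in the top library, against 195, 1198, 842, 2143 and 2574 counts in the bottom library. Its mean was 1.33 ± 0.64 (SD, n = 5 guides), and its partner subunit FARSA had 0.54 ± 1.03, not called. NARS, for asparagine, had 2146, 4606, 3244, 5084 and 2031 counts in the top library, against 1235, 2003, 732, 2873 and 405 counts in the bottom library, and a mean of 1.14 ± 0.73 (SD, n = 5 guides). The permutation adjusted p was 0.000676 for both FARSB and NARS.

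The other bright cytosolic enzymes were LARS at 0.85, VARS at 0.75, EPRS at 0.69, AARS at 0.59, IARS at 0.56 and HARS at 0.52. Of the 8, FARSB, NARS and VARS passed under every alternative, AARS missed with the 3 farthest guides, and LARS, EPRS, IARS and HARS missed by edgeR, DESeq2 and a rank sum. WARS, TARS, KARS and YARS lay between -0.03 and 0.11. The mitochondrial call was IARS2, at 0.84 ± 1.03, with 1 guide at 2.56. The dim call was GARS, for glycine, at -1.36 ± 2.64 (SD, n = 5 guides; permutation adjusted p = 0.03). It had 0, 1448, 1880, 2693 and 1891 counts in the top library, against 53, 1481, 1562, 2314 and 1766 counts in the bottom library. The value rested on the guide with 0 counts, and the other 4 guides had a mean of -0.18.

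Of 7 genes for branched actin, 4 were called bright and 0 dim, beside 2.03% and 0.733% over all H1 genes. The Arp2/3 complex starts new filaments from the side of old ones, and cofilin severs filaments. CFL1, the gene for cofilin, had 1662, 1065, 8033, 2658 and 3096 counts in the top library, against 1315, 936, 614, 609 and 1918 counts in the bottom library. Its guides ran from -0.13 to 3.39, with a mean of 1.09 ± 1.50 (SD, n = 5 guides; permutation adjusted p = 0.00859). Of the Arp2/3 subunits, ACTR2 had 0.98 ± 1.06, ARPC2 had 0.60 ± 0.99 at P1 and ARPC3 had 0.58 ± 0.75 at P1, all called. ARPC4 at 0.53, ARPC1B at 0.44 and ARPC5 at 0.04 were not called. All 7 genes of this list, drawn up after the values were seen, lay above 0, with a median of 0.58. None of the 4 called genes passed by edgeR, DESeq2 or a rank sum.

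In metabolism, ACACA, the acetyl-CoA carboxylase that commits carbon to fatty acids, was dim. It had 1937, 2359, 201, 3294 and 635 counts in the top library, against 1531, 4467, 801, 4616 and 976 counts in the bottom library, and a mean of -1.05 ± 0.84 (SD, n = 5 guides; permutation adjusted p = 0.000676). A single guide stood at 0.02, and the call was not made by edgeR or DESeq2. ACSL4, which activates polyunsaturated fatty acids, was bright at 0.50 ± 0.21, and the other 6 genes of fatty acid synthesis and activation lay between -0.15 and 0.19. PMVK, of the mevalonate path to isoprenoids and cholesterol, was dim at -0.48 ± 0.27, and DHCR7 at -0.44, of the same list of 15, was not called. NDUFAB1, the mitochondrial acyl carrier protein, was bright at 0.55 ± 0.37. It was the only call among 48 respiratory chain and ATP synthase genes, or 2.08%, near the 2.03% called bright over all H1 genes. Of the 48 genes, 34 lay above 0, with a median of 0.09. The calls of ACSL4, PMVK and NDUFAB1 were not made by edgeR. Those of ACSL4 and PMVK were also lost when p was adjusted within H1 alone. None of 29 glycolysis and sugar kinase genes was called, and the lowest were PFKP at -0.46 and HK2 at -0.44.

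LSM6, of the RNA-binding LSM ring, had 1682, 492, 179, 607 and 1367 counts in the top library, against 586, 193, 0, 215 and 392 counts in the bottom library. Its mean of 2.41 ± 2.67 (SD, n = 5 guides) rested largely on the guide with 0 counts, and without that guide the mean was 1.22 ± 0.19. The permutation adjusted p was 0.000676, and edgeR and DESeq2 did not call it. RSL24D1, of large ribosomal subunit assembly, had 1.08 ± 0.54, and KAT2A, a histone acetyltransferase, had 0.94 ± 0.27. ABCE1, which splits ribosomes after translation, had 0.83 ± 0.57, and UBA1, the main enzyme that activates ubiquitin, had 0.61 ± 0.64 at P1 and -0.10 at P2. RSL24D1 and KAT2A passed under every alternative, whereas ABCE1 missed by edgeR and UBA1 missed by edgeR, DESeq2 and a rank sum. The last bright calls were NCOA5 at 0.59 and C17orf75 at 0.53, and the last dim calls were PLEKHA1 at -0.55, which binds a membrane phosphoinositide, and GNAT1 at P2. GNAT1, the transducin of rods, had 53, 1817, 2535, 520 and 1265 counts in the top library, against 254, 1973, 2263, 512 and 939 counts in the bottom library. Its mean was -0.67 ± 1.08 (SD, n = 5 guides; permutation adjusted p = 0.0293), and -0.19 without its farthest guide.

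Guides of some called targets had a low summed share of the 2 libraries, which need not mean a low share in each. Averaged over a target's guides, log2 of that summed share lay more than 1 below the non-targeting median for 9 of 47 bright targets (19.1%). The same held for 3 of 19 dim targets (15.8%), against 121 of 2489 uncalled targets (4.86%). The scarcest bright targets were LSM6 at -2.27, AURKB at -2.14, IARS2 at -1.82 and PLK1 at -1.78. SLC1A5 at P1 and the V-ATPase subunits lay between -0.57 and 0.34. Non-targeting guides spread most where counts were lowest, as given above, and the part of this in the calls of scarce targets was not tested.

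Second starts held fewer calls. H1 held 217 genes with separate P1 and P2 targets, of which 6 were called at P1, 2 at P2 and 1, SLC1A5, at both. Means had an SD of 0.252 over the P1 targets and 0.129 over the P2 targets. SLC1A5, at -2.63, weighs heavily in the P1 figure, and the SDs were not computed without it. Across the 217 genes, which share libraries and depth, Pearson's r between the starts was 0.21, and 0.06 without SLC1A5.

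Within called targets, guides over 300 bases apart had the largest median difference of 4 distance classes, though the difference did not grow steadily with distance. The median difference in log2 value between guides of 1 target was 0.44 for the 259 pairs up to 50 bases apart, 0.51 from there up to 200 bases, 0.33 from there up to 300 bases and 0.84 for the 171 pairs over 300 bases apart. In targets that were not called it lay between 0.21 and 0.22 in all 4 distance classes. The first guide of a target is the one with the lowest position, without regard to the gene's strand, so first does not mean upstream. In HGS, SNAP23 and ATP6V1A the low guides lay farthest from the first one. In NEDD8-MDP1, CFL1 and GPX1 the first guide was low, at -0.03, 0.02 and -0.10, and the highest lay farther on. NEDD8-MDP1 is a gene of the minus strand, and the direction of these shifts along the genes was not compared.

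Some guides were measured again in the separate sort of another sublibrary. In H1, 109 guide entries of 33 genes were also listed under another gene in a compared sublibrary, which made 119 pairs. Entries of C4A and C4B, and some of HBA1 at P1 and P2, had identical counts in both sorts. Some pairs therefore repeat the same counts. Across these pairs, which are not independent replicates, Pearson's r between the H1 value and the other value was 0.79 and Spearman's rho was 0.29. Without the NEDD8-MDP1 guides r was 0.49 over 116 pairs. Of 8 pairs whose H1 value passed 0.5 in size, 7 had the same sign in the other sort.

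NEDD8-MDP1 is a read-through of NEDD8, the ubiquitin-like modifier of cullin ligases, and MDP1. Its H1 guides had 1412, 726, 1203, 1688 and 3599 counts in the top library, against 1161, 353, 621, 135 and 342 counts in the bottom library. The mean was 1.54 ± 1.54 (SD, n = 5 guides; permutation adjusted p = 0.000676). Its highest guides, at 3.32 and 3.08 in H1, were listed under NEDD8 in H3 and had 2.64 and 2.45 there, and NEDD8 itself had a mean of 1.76 in H3. A guide shared by ABCE1 and ANAPC10 had 0.92 in H1 and 0.04 in H2. For 8 called H1 targets, guides of another compared gene lay within 1000 bases, and NEDD8 was the only such neighbour called, in the same direction. The neighbours of CCT3, HGS and PPP1R10, namely TSACC at 0.02, ARL16 at -0.03 and MRPS18B at -0.15, were not called.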

How the data were processed

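Guide RNAs were sequenced from genomic DNA of sorted cells after 27 PCR cycles, per the labels' protocols. The deposited values are raw read counts for each guide, with no normalization by the authors. Bowtie is named in the submitters' processing notes, with the genome build and its settings not given in the sources used here. A guide that only 1 of the 2 H1 tables listed was taken as 0 in the other (3 listed in the top table only and 2 in the bottom table only).

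Samples were grouped by title, 1 library per group. A pseudocount of 1 was added, counts became shares of the library total, and the log2 ratio of top over bottom was set to 0 at the median non-targeting guide of the sublibrary. Guides with under 50 counts in both libraries were left out (13 of H1), and targets needed at least 3 guides. The permutation test drew 100000 sets of as many guides from the target's own and the non-targeting guides. The smallest p was 1e-05, reached by 21 H1 targets, and 252 targets (9.86%) had an unadjusted p under 0.05. H4 was not compared, since its top table breaks off in mid-name after 35 complete guides. edgeR 4.0.16 and DESeq2 1.42.0 in R 4.3.3 were alternatives, because a single guide has no residual degrees of freedom with 1 library per group. Other steps used Python 3.11.15, numpy 2.4.6, pandas 2.3.3 and scipy 1.17.1, and the tests were tested on simulated data.

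Counts were given guide by guide for the 10 highest and 10 lowest called targets by mean over the non-targeting SD, among those with at least 4 guides of which 80% shared the sign of the mean. Some genes that these rules take are not reported here. GPX1, FECH, HGS, PLK1 and PPP2R1A were added after their values were seen, as were the guide values of SNAP23 and RAB7A. In gene lists, members farthest from 0 were named, and genes with several starts were taken at the primary one. The members, lists and rules were chosen with earlier results of these data known, and the fatty acid and glutamine groups, like those named in the results, after the values were seen. Gene names and chromosomes came from RefSeq on GRCh38.p14, where 2317 of 2318 H1 symbols matched.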

Additional observations from a re-analysis of the deposited data

How the results depend on the processing

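No paired analysis was possible because each group holds 1 library. Of 17 alternatives, 1 (a filter of 500 counts in either library) was chosen after the data were seen. No called target changed sign, and 20 of the 66 calls, 16 bright and 4 dim, passed under every alternative. They were ATP6V1A, ATP6V1B2, ATP6V1C1, ATR, AURKB, CCT3, FARSB, KAT2A, NARS, NRBP1, PLK1, PPP2R1A, RSL24D1, SCLY, SEPSECS and VARS on the bright side, and the dim ones included DDX39B, RIOK2 and SLC1A5 at P1. edgeR with guides as blocks called 22 bright and 8 dim targets, of which 22 and 7 were among the permutation test's 47 and 19. TMM scaling gave 22 and 8 as well. DESeq2 called 57 bright and 33 dim targets, sharing 28 and 12. The filter of 500 counts gave 85 bright and 40 dim calls, sharing 47 and 16, and the cause was not tested. GARS lost its call under 9 alternatives, among them leaving out its farthest guide. Over the other settings the count ran from 36 to 62 bright and from 14 to 28 dim. Without replicate sorts, these ranges hold no spread between experiments.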

Other observations

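Some single guides repeated a shift in a separate sort of another sublibrary while the mean over their H1 gene was not called. A guide listed for CDK3, a cyclin-dependent kinase, in H1 and for TEN1, a telomere protein, in H7 had 1296 counts in the H1 top library, against 2365 in the H1 bottom library, a value of -1.18. In H7 it had 442 counts in the top library, against 1270 in the bottom library, a value of -1.56. The mean over the CDK3 guides was -0.32 ± 0.51 (SD, n = 5 guides). A guide listed for MCFD2, a cargo receptor partner in the secretory pathway, in H1 and for TTC7A, of the complex that brings PI4-kinase to the plasma membrane, in H7 had -1.02 and -1.07. The MCFD2 mean at P2 was -0.28 ± 0.43. A guide listed for VTN in H1 and SEBOX in H5 had 1.96 and 0.72, on 265 counts in the H1 top library, against 54 in the H1 bottom library. Of the 8 pairs whose H1 value passed 0.5 in size, which include guides of the called NEDD8-MDP1 and ABCE1, 1 had the opposite sign. It was a guide of KCNJ12 at 0.58 in H1 and -0.20 in H7, where it is listed for KCNJ18.

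The highest mean without a call belonged to BMP2K, a kinase of clathrin-coated vesicles, at 0.71 ± 1.61 with 3 of 5 guides above 0 (permutation adjusted p = 0.163). The bright target nearest to the threshold without passing was DHPS, which makes hypusine on a translation factor, at 0.51 ± 0.72 (permutation adjusted p = 0.0541). On the dim side MED1, of the Mediator complex, had -0.46 ± 0.21 with 5 of 5 guides below 0 (permutation adjusted p = 0.0549), and DLAT, of the pyruvate dehydrogenase complex, had -0.47 ± 0.58 (permutation adjusted p = 0.0537).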
